A study of Mus musculus with 19 samples.

Results

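The cells described here are mouse thymocytes with messenger RNA of Ptcra (ENSMUSG00000036858), which encodes pre-TCR alpha, and without detected RNA of the coreceptors CD4 and CD8. They were chosen from the 12 unsorted lanes of the study by 4 requirements on RNA: at most 15% of unique molecular identifiers (UMIs) from mitochondrial genes, at least 200 genes, at least 2 UMIs of Ptcra, and 0 UMIs of Cd4, Cd8a, Cd8b1, Sox13 (a factor of gamma-delta T cells) and Cd79a (a chain of the B cell receptor). They are called DN Ptcra+ cells below, for double-negative, and members in the plots. There were 305 of them among 52545 unsorted cells that passed the RNA filters (0.58%) and among 79569 such cells in all 19 lanes.

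The samples came from a comparison of CD4-fated with CD8-fated differentiation. RNA and 111 surface proteins were counted in single thymocytes by CITE-seq, in which antibodies carry DNA tags that are sequenced with the RNA of each cell. All animals were females of 4 to 8 weeks of age. The unsorted lanes held 2 mice each of 5 genotypes. AND TCRtg Rag1-/- mice (bred from B10.Cg-Tg(TcrAND)53Hed/J) and OT-II mice (B6.Cg-Tg(TcraTcrb)425Cbn/J, with intact Rag genes) carry a T cell receptor (TCR) specific for MHC class II. F5 TCRtg Rag1-/- mice (with alpha and beta receptor genes driven by CD2 sequences) and OT-I mice (C57BL/6-Tg(TcraTcrb)1100Mjb/J, with intact Rag genes) carry one specific for MHC class I. B6 mice, replicates 4 and 5, were the wild type with no transgene. The 7 sorted lanes held B6 replicates 1 to 3, MHCI-/- (B2m-/-) replicates 1 and 2 and MHCII-/- (H2-Ab1-/-) replicates 1 and 2. They differ from the unsorted lanes in genotype or experiment as well as in sorting. The AND and F5 mice were measured in the first and second experiment at one site and the OT-I, OT-II and B6 mice in the third at another, so that Rag1 deficiency, the pair of transgenes and the experiment cannot be told apart. The transgenes provide rearranged receptor genes before the stage at which a thymocyte would make its own. Nothing in the sources used here gives littermate status. The permutation p-values below measure the spread between these mice. The p-values of edgeR, the program used for the other tests, also draw on the spread of other genes or proteins. They do so most where few residual degrees of freedom remain (1 for OT-II against B6, 2 for cycling cells).

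Early thymocytes lack CD4 and CD8 and pass through double-negative stages that are told apart by the surface proteins CD44, CD25 and c-kit. Notch1, a receptor cleaved on contact with ligands of the thymic stroma, releases a fragment that joins the DNA-binding protein RBPJ and drives genes such as Hes1, Dtx1, Ptcra and Il2ra, which encodes CD25, the alpha chain of the IL-2 receptor. A cell whose TCR beta gene has been joined in frame pairs the beta chain with pre-TCR alpha and CD3, and the resulting pre-TCR signals through Lck for survival, cell division, the end of CD25 expression and the start of CD4 and CD8 expression. This checkpoint is called beta-selection. Rag1 and Rag2 cut DNA for the joining, and Rag1-deficient thymocytes stop before it unless a transgene supplies a receptor.

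The start of the Ptcra gene is shown because its transcript defines the cells, and that of Il2ra because it is a marker found with it. That of Hes1, the other marker, was not among the sequences available. Each run spans 250 bases before to 50 bases after the annotated start and comes from RefSeq (build GRCm38.p6, 5′ to 3′ on the strand of the gene). Capitals mark TGGGAA, the core letters bound by RBPJ, and CANNTG, the E-box bound by E proteins, searched on both strands. The Ptcra run, chr17:46763663-46763962 on the minus strand, held 2 matches to TGGGAA and 3 to CANNTG.
Ptcra: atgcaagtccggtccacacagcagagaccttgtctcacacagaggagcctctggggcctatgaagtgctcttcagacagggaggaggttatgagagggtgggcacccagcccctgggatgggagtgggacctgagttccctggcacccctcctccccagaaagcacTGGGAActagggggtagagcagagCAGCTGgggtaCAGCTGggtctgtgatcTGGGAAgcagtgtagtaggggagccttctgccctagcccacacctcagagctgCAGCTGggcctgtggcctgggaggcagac
Il2ra: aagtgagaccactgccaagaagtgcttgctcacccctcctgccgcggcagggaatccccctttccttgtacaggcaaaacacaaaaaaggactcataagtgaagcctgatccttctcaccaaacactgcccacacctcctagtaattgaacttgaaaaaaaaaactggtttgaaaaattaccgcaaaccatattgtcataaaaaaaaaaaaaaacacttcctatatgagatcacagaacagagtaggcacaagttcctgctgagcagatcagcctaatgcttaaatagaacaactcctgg
The Il2ra run, chr2:11642542-11642841 on the plus strand, held neither motif. The runs of Notch1, Dtx1 and Notch3, which are not printed, held neither as well. Of 32851 mouse promoters of the same length, 25.6% held TGGGAA and 72.3% held CANNTG, so matches to the E-box letters in particular are common. A match of letters is a description of this window and no evidence of binding.

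DN Ptcra+ cells were found in 9 of 10 unsorted mice, and 210 of the 305 (68.9%) came from the OT-II mice. They made up 2.18% of the cells of OT-II replicate 1 (127 cells, exact 95% binomial interval 1.82 to 2.59%) and 2.61% of replicate 2 (83 cells, 2.09 to 3.23%). In the B6 mice the shares were 0.335% (42 cells, 0.242 to 0.453%) and 0.135% (13 cells, 0.0718 to 0.23%). The 2 OT-II mice thus lay above every other mouse, and their intervals, which cover counting error only, overlapped with none of the others.

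The F5 mice had 6 cells (0.227%) and 19 cells (0.42%), and the OT-I mice 4 cells (0.107%) and 5 cells (0.145%). AND replicate 1 had 6 cells (0.224%). AND replicate 2 had 0 of 4320 cells, which allows a share of up to 0.0694%. No cell of the 7 lanes sorted for CD5 and TCR beta, surface proteins of later stages, passed the requirements (0 of 27024 cells, a share of up to 0.0111%), although 597 of those cells (2.21%) had at least 2 Ptcra UMIs.

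**Figure D1:**
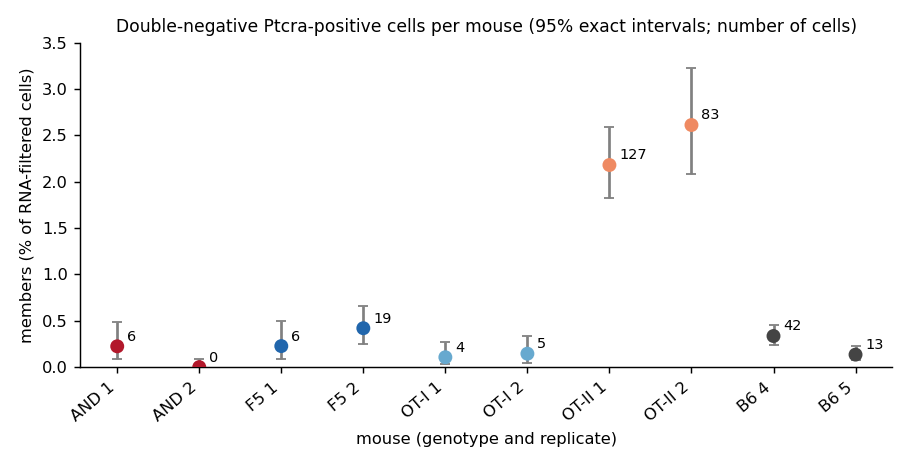
Share of DN Ptcra+ cells (members) among RNA-filtered cells of each unsorted mouse, in percent, with exact 95% binomial intervals as bars and the number of cells beside each point. The OT-II mice lie at 2.18% and 2.61%, and the other 8 mice at or below 0.42%.

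A share defined by 0 UMIs of some genes and 2 of another depends on depth, and the DN Ptcra+ cells were deep. Their median was 12057 RNA UMIs (range 1058 to 68473), against 3756 over all unsorted cells. After each cell was thinned to 1000 UMIs, which left out 1703 shallower cells, 104 cells met the requirements, and 27 of these were DN Ptcra+ cells at full depth. The thinned share is therefore mostly made of cells whose UMIs of Cd4, Cd8a, Cd8b1, Sox13 or Cd79a were removed by thinning. At this depth the 4 MHC class II-specific mice averaged 0.363% ± 0.379 (SD) and the 4 class I-specific mice 0.0729% ± 0.102, a difference of 0.29 percentage points (two-sided exact permutation test, p = 0.229, adjusted p = 0.514 over 9 tests of shares). Without thinning the means were 1.25% and 0.224% (exact permutation p = 0.371). Neither the Rag1-deficient against the Rag1-sufficient transgenic mice (thinned difference -0.218 points, exact permutation p = 0.4) nor OT against B6 mice (0.214 points, exact permutation p = 0.8) differed beyond the spread between mice. Without thinning the differences were -1.04 points (exact permutation p = 0.314) and 1.03 points (exact permutation p = 0.667). The thinned differences rest largely on OT-II replicate 1: without it they were 0.117 points for MHC class, -0.0332 for Rag1 deficiency and 0.0293 for OT against B6. Without OT-I replicate 1 that for OT against B6 was 0.324 points. The smallest p that these designs allow is 0.0286 for 4 against 4 mice and 0.133 for 4 against 2.

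The label of the cells was checked against its markers and against the surface proteins, of which only Ptcra entered the requirements. Il2ra (ENSMUSG00000026770) had a UMI in 269 of the 305 cells (88.2%) and Hes1 (ENSMUSG00000022528), a transcriptional repressor and classical Notch target, in 216 (70.8%). Both were present in 202 cells and neither in 22. The comparison population throughout is the 1418 unsorted cells with at least 2 Ptcra UMIs and RNA of both Cd4 and Cd8, called coreceptor-positive Ptcra+ cells (median 9508.5 UMIs), of which 20.9% had an Il2ra UMI and 11.7% a Hes1 UMI. In the 123 cells with Cd79a, which are shallower (median 3908 UMIs), the shares were 3.25% and 10.6%. Markers of general T lineage identity were near-universal, with UMIs of Cd3e, a chain of the CD3 complex, in 98.0% of the DN Ptcra+ cells and of Lck in 98.7%.

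The surface proteins of the coreceptors were low as well. Per 10000 antibody UMIs, CD4 protein was at 18.7 to 88.7 over the 9 mice (median 49.6), against 317 to 684 in coreceptor-positive Ptcra+ cells (median 494). CD8a protein was at 16.5 to 76.5 (median 34.2) against 535 to 877 (median 676). The ranges did not overlap for either protein. By cell, 290 of 305 (95.1%) lay at or below the 10th percentile of the coreceptor-positive cells (179 per 10000 for CD4 and 293 for CD8a) for both proteins, 10 lay above it for CD4 only, 5 for CD8a only and 0 for both.

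The cells around the thresholds differed in depth as well as in markers. The 72 cells with exactly 2 Ptcra UMIs (median 7634 RNA UMIs) had Il2ra in 84.7% and CD25 protein at 1062 per 10000, while the 161 cells with exactly 1 Ptcra UMI that met all else, just outside (median 5217 UMIs), had Il2ra in 51.6% and CD25 at 648. The 189 cells kept out by a single coreceptor UMI (median 13314 UMIs) had Il2ra in 81.5% and CD25 at 845. The 48 cells kept out by Sox13 (median 16965.5 UMIs) had Il2ra in 93.8% and CD25 at 1206, and 1 cell was kept out by Cd79a. The part of depth in these shares was not tested.

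After the coreceptor proteins CD4, CD8a and CD8b, which differed more, CD25 had the largest fitted difference of the surface proteins. It stood at 636 per 10000 in AND replicate 1, 466 and 451 in the F5 mice, 757 and 71.9 in the OT-I mice, 1320 and 1149 in the OT-II mice, and 1335 and 1090 in the B6 mice. In coreceptor-positive Ptcra+ cells of the same mice it ran from 7.69 to 314 (median 68.8). Every mouse was higher in DN Ptcra+ cells, and 247 of the 305 cells (81%) lay above the 95th percentile of the coreceptor-positive cells, 547 per 10000. In OT-I replicate 2, the lowest mouse, 3 of 5 cells had no Il2ra UMI, and these held CD25 at 3.74 per 10000, against 183 in the other 2. Other mice had such cells too. They were 7 of 19 in F5 replicate 2 (CD25 at 138, against 614 in cells with Il2ra) and 6 of 42 in B6 replicate 4 (118 against 1605). B6 replicate 5 had 1 of 13 (18.9 against 1211). In the OT-II mice, 11 of 127 and 8 of 83 cells lacked Il2ra, with CD25 at 780 and 606 against 1349 and 1190.

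The protein comparison was tested with the mouse as a block over 9 mice, in edgeR, using its quasi-likelihood test, TMM scaling and Benjamini-Hochberg adjustment. The coreceptor-positive cells numbered 3 in OT-I replicate 2, 16 in AND replicate 1 and 24 to 646 in the other 7 mice, so that the direction in OT-I replicate 2 rests on 5 against 3 cells. Leaving out CD4, CD8a and CD8b, 28 of the other 108 proteins (25.9%) differed, 11 higher (10.2%) and 17 lower (15.7%) in DN Ptcra+ cells. The split depends on scaling: TMM set the median log2 difference at -0.09, and scaling to the total of antibody UMIs set it at 0.32 and called 51 proteins, 46 of them higher. The proteins named here were called under both scalings, unless stated. CD25 was higher by 3.01 ± 0.48 on the log2 scale (± SE, edgeR quasi-likelihood adjusted p = 0.00032). CD127, the alpha chain of the IL-7 receptor on which double-negative cells rely for survival, was at 1.74 to 29.8 per 10000 against 0.986 to 7.93 and higher by 1.55 ± 0.18 (edgeR adjusted p = 1.75e-05). Its level was near the floor, at only 9.27 to 11.6 per 10000 in DN Ptcra+ cells of the OT-II and B6 mice. There the antibody to NKp46, a natural killer cell protein, gave 12.1 to 32.

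Several other proteins were also higher. Ep-CAM (1.54 ± 0.23), an epithelial adhesion protein also present on early thymocytes, CD49d (1.19 ± 0.19), the integrin alpha4 chain, CD106 (0.97 ± 0.22), the ligand of the alpha4 integrin, CD48 (0.58 ± 0.16), a ligand of the CD2 family, CD54 (0.55 ± 0.15), the ligand of LFA-1, and CD29 (0.44 ± 0.13), the integrin beta1 chain, all rose in log2 terms relative to coreceptor-positive cells by edgeR's test, with adjusted p from 0.000189 to 0.0261. Sca-1, a surface protein of hematopoietic progenitors and some T cells, was at 38.8 to 279 per 10000 against 19.7 to 89.4 and higher by 1.47 ± 0.19 (edgeR adjusted p = 5.5e-05). Each of these proteins was higher in all 9 mice. CD106 stood at only 21.2 to 41.1 per 10000 in the OT-II and B6 mice. CD29 was called in 10 of 15 alternatives, the others in all 15.

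Of the 17 lower proteins, CD5, a negative regulator whose level follows TCR signal strength, was at 75.4 to 843 per 10000 (median 140) against 200 to 681 (median 443). It was lower in 8 of 9 mice, the exception being OT-I replicate 2, and the log2 difference was -1.41 ± 0.27 (edgeR adjusted p = 0.00108). CD150, a SLAM family receptor, was lower by -1.40 ± 0.21, Neuropilin-1, a co-receptor of semaphorins, by -1.17 ± 0.21 and CD28, the costimulatory receptor, by -0.98 ± 0.16 on the log2 scale (edgeR adjusted p of 0.000189, 0.000927 and 0.000321). The antibody to H-2Kb bound to the SIINFEKL peptide gave levels of only 3.85 to 10.2 per 10000 and was lower by -0.83 ± 0.13. TCR beta protein was lower by -0.86 ± 0.27 under TMM (edgeR adjusted p = 0.0309) and did not pass under total scaling (log2 difference -0.44, adjusted p = 0.2), and it was called in 5 of 15 alternatives. CD90.2, the T cell surface protein Thy-1, CD45.2, CD11a, an LFA-1 chain, and CXCR4 were lower under TMM alone among the scalings, at -0.75, -0.68, -0.80 and -0.65, and were called in 14, 13, 9 and 12 of 15 alternatives.

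**Figure D2:**
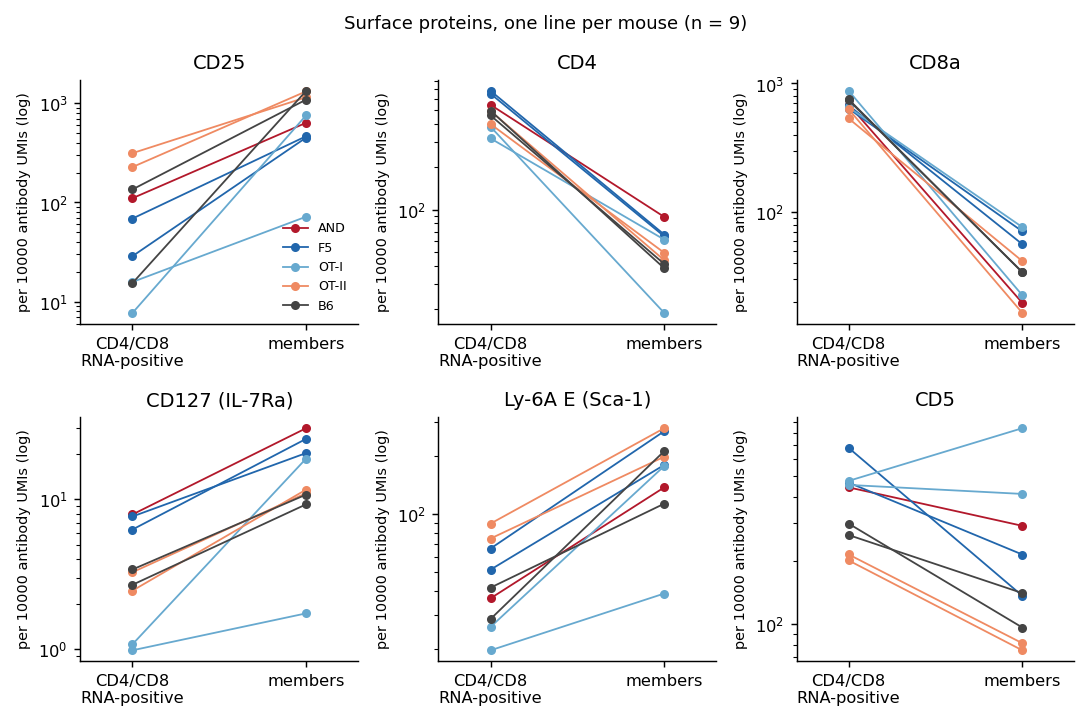
Surface protein per 10000 antibody UMIs (log axis) in coreceptor-positive Ptcra+ cells and DN Ptcra+ cells (members), with a line for each of 9 mice colored by genotype. CD25, CD127 and Sca-1 go up in each mouse, CD4 and CD8a go down in each, and CD5 goes down in 8 of 9.

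c-kit and CD44 tell the earlier double-negative stages from later ones. c-kit protein was at 42.9 to 115 per 10000 against 21.8 to 62.1, with a log2 difference of 0.38 that did not pass the test (edgeR adjusted p = 0.192, and 0.00659 under total scaling). Notch 1 protein was at 16.2 to 111 per 10000 against 17.8 to 64.2 and higher in 8 of 9 mice, and likewise passed under total scaling only.

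The RNA of the same 2 populations is described without a test, since RNA of the coreceptors divided them. Of 3206 genes at 50 CPM or more (CPM scales the summed UMIs of the cells of a mouse to a common total), 166 (5.18%) were higher and 244 (7.61%) lower in DN Ptcra+ cells in all 9 mice. In OT-I replicate 2 the direction of each gene rests on 5 against 3 cells, here and in all counts of mice below. Its DN Ptcra+ cells held 41778 RNA UMIs, where a count of 0 allows up to 71.8 CPM. Ptcra itself was at 105 to 646 CPM in DN cells and 207 to 504 CPM in coreceptor-positive ones. It was higher in 5 mice and lower in 4, and both populations were required to hold at least 2 UMIs of it.

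Of the Notch receptors, Notch1 was at 168 to 682 CPM (median 293) in DN Ptcra+ cells and 55.4 to 499 (median 172) in coreceptor-positive ones, higher in each mouse. Notch3, a receptor that is itself raised by Notch1 signaling, was at 0 to 236 CPM against 18.5 to 122, higher in 4 mice and lower in 5. Among the 10 listed targets, Hes1 was at 73.3 to 906 CPM (median 169) against 0 to 178 (median 24.5) and Il2ra at 108 to 596 CPM (median 345) against 7.99 to 240 (median 33.8), both higher in 9 of 9 mice. Igf1r, a growth factor receptor, was higher in 9 of 9 mice too, at 21.1 to 105 CPM against 0 to 27.6. Dtx1, the ubiquitin ligase Deltex1, was higher in 5 mice and lower in 4, and Ifngr1 was lower in 8. Hes5, Heyl and Nrarp stayed at or below 28.1 CPM in every mouse, and Hey1 was at 0 UMIs. The ranges overlapped between populations for each of these genes. Of the 6 genes of the nuclear complex, among them Rbpj, Maml1 to Maml3 and Kat2b, 2 were at 50 CPM or more. Of 12 genes that modify and cleave Notch, such as the Fringe enzymes and secretase subunits, 1 was. None of these moved the same way in 9 mice, where 5.18% of all 3206 genes were higher and 7.61% lower. Genes at lower levels did not enter this count.

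Genes of the pre-TCR complex were detected throughout. Cd3g was at 551 to 2892 CPM in DN Ptcra+ cells (median 1414) against 412 to 1253 (median 825), higher in 8 of 9 mice. Cd3d (median 638 against 637 CPM) and Cd3e (423 against 436) had like medians. Of the 16 genes of the complex and its proximal signaling at 50 CPM or more, 4 were lower in all 9 mice and 0 higher, against 7.61% and 5.18% of all 3206 genes. Among these were Lck, the kinase that starts signaling (median 733 against 934 CPM), Ptprc, the CD45 phosphatase (317 against 522), and Cd6, a CD5-like receptor (14.1 against 65.8). The median log2 ratio over the list was -0.53, against -0.10 over all 3206 genes.

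Of 7 receptor constant genes, 3 were higher and 3 lower in all 9 mice, against 5.18% and 7.61% of all 3206 genes. Tcrg-C2 (263 to 546 CPM against 0 to 110), Tcrg-C1 (71.8 to 612 against 0 to 66.5) and Tcrg-C4 (78.7 to 360 against 0 to 37.3), which encode constant parts of the TCR gamma chain, had the 3 highest median log2 ratios, from 2.97 to 3.55 with 10 CPM added. They are similar in sequence, as are Trbc1 and Trbc2, and their split between copies is uncertain. Trbc1 (654 to 2138 CPM against 1548 to 4162), Trbc2 (831 to 5782 against 2473 to 10424), which encode the constant part of the beta chain, and Trac of the alpha chain (9.8 to 2880 against 149 to 6673) were the lower ones. Trdc, the delta constant gene that lies within the Tcra locus, was at 62 to 467 CPM against 84.3 to 499, higher in 4 mice. Other markers of gamma-delta cells were low, Maf at 0 to 47.9 CPM and Blk at 0 to 120, while the summed list was at 371 to 1076 CPM against 137 to 610. TCR gamma-delta protein was at 4.43 to 18.2 per 10000 against 2.88 to 17.1. The part of gamma-delta committed cells in these values was not tested.

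Il2ra, Ifitm2, an interferon-induced membrane protein (23.9 to 147 CPM against 0 to 15.6), Myl10, a myosin light chain (0 to 692 against 0 to 81.1), Ccdc109b, a subunit of the mitochondrial calcium channel (12.4 to 199 against 2.66 to 55.4), Ccnd2, cyclin D2 (66.7 to 707 against 0 to 102), Plac8 (192 to 911 against 33 to 245) and Akr1c13, an aldo-keto reductase (31.4 to 148 against 0 to 29.1), followed. Each was higher in 9 of 9 mice except Myl10 (8) and Ccdc109b (7).

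Of 8 double-positive stage genes at 50 CPM or more, 3 were lower in all 9 mice and 0 higher, against 7.61% and 5.18% of all 3206 genes. Satb1, a chromatin organizer of the commitment list, was at 28.6 to 455 CPM (median 314) against 662 to 1403 (median 1102) and did not overlap. Rmnd5a (28.1 to 124 against 111 to 370) and Themis, a protein of TCR signaling at positive selection (9.53 to 248 against 67.7 to 279), were lower in all 9 mice. Ccr9, a chemokine receptor of double-positive cells, was lower in 8 of 9 (9.53 to 383 against 19.7 to 721). Other genes with low ratios were Ptms, Syt13, Adgre5, which encodes CD97, Kif4, a mitotic kinesin, Lipa, lysosomal acid lipase, Phlda1 and Ikzf3, the factor Aiolos, with median log2 ratios from -2.56 to -1.87.

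**Figure D3:**
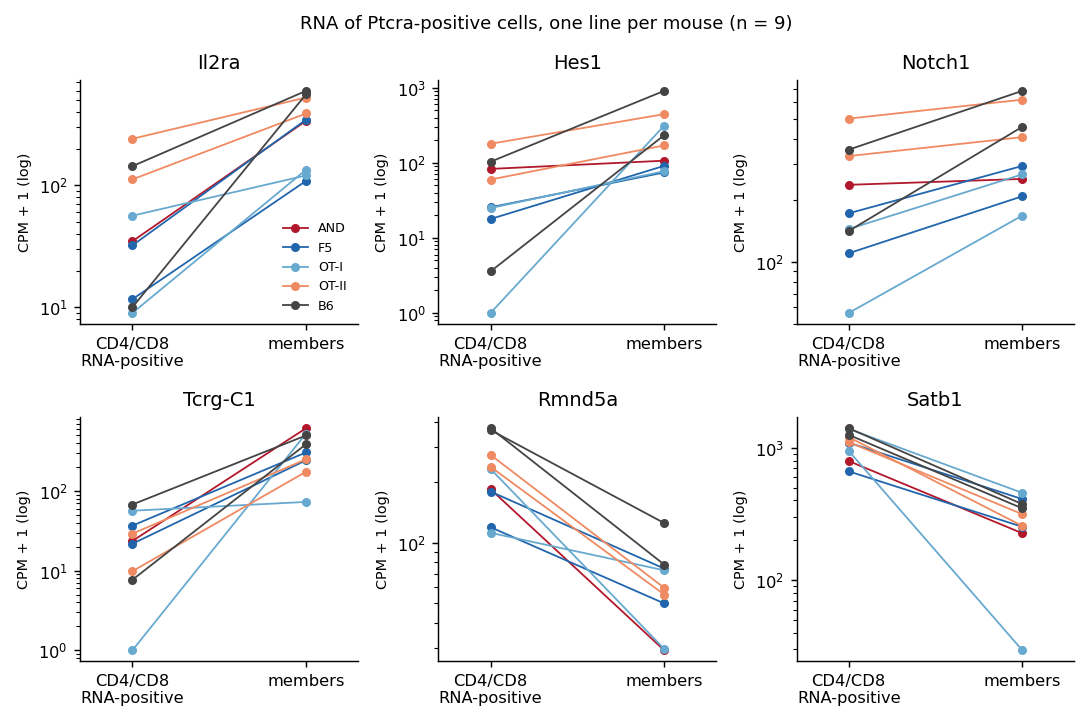
CPM + 1 (log axis) of 6 genes in coreceptor-positive Ptcra+ cells and DN Ptcra+ cells (members), with a line for each of 9 mice colored by genotype. Il2ra, Hes1, Notch1 and Tcrg-C1 are higher and Rmnd5a and Satb1 lower in DN Ptcra+ cells of each mouse.

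Genes of the earliest double-negative stages were hardly present. Flt3, Lmo2, Meis1, Tal1 and Cd34 had 0 UMIs in the 305 cells, Kit was at 2.57 to 47.9 CPM and had a UMI in 15.1% of cells, and Cd44 had one in 2.3%. Il7r, the transcript of CD127, was the 1 gene of that list at 50 CPM or more, at 0 to 105 CPM against 0 to 31.2, higher in 8 of 9 mice. Of the commitment factors, Tcf7, which encodes TCF-1 (median 542 against 970 CPM), Satb1 and Ets2 (38.6 against 146) were lower in 9 of 9 mice, while Bcl11b, which seals T lineage commitment (414 against 638), was lower in 8. Gata3 (86.1 against 102) and Runx1 (157 against 107) went different ways in different mice.

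Of 8 growth genes at 50 CPM or more, 2 were higher in all 9 mice and 0 lower, against 5.18% and 7.61% of all 3206 genes. Myc, the growth regulator (66.7 to 272 CPM against 50 to 134), and Npm1, the nucleolar protein nucleophosmin (1419 to 3029 against 827 to 2659), were higher in all 9 mice, as was Selplg, which encodes the selectin ligand PSGL-1 (171 to 471 against 111 to 288). Of 36 cell-cycle genes, 6 were lower in all 9 mice (Mki67, Top2a, Ube2c, Ccnb1, Nusap1 and Prc1, all of the later phases of the cycle) and 0 higher, while Mcm2, Mcm5 and Mcm7, of the replicative helicase, were higher in 4 or 5 mice and lower in the rest. Over all 3206 genes 7.61% were lower in all 9 mice. The median log2 ratio of the 36 genes was -0.83, against -0.10 over all genes.

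Some defining markers of other cell types were at 0 and others were detected. Klrb1c, Ncr1 and Klrd1 of natural killer cells, Ms4a1 of B cells, Siglech of plasmacytoid dendritic cells, and Psmb11 and Col3a1 of stroma were at 0 UMIs in all 305 cells. All 3 erythroid, all 6 myeloid and all 3 mature T markers had UMIs, as had 4 of 5 plasmacytoid dendritic, 2 of 4 B cell, 2 of 4 stromal and 1 of 4 natural killer markers. The summed erythroid markers were at 0 to 23.9 CPM and the myeloid ones at 23.9 to 241 CPM, against 111 to 328 CPM in coreceptor-positive Ptcra+ cells. The B cell markers summed to 0 to 73.5 CPM against 0 to 49.2, and the stromal ones, which include Epcam, to 34.7 to 199 against 39.5 to 75.5. The plasmacytoid dendritic list summed to 143 to 407 CPM against 104 to 721. It includes Ccr9, which gave 383 CPM of the highest sum, and Bst2, an interferon-induced membrane protein at 23.9 to 295 CPM against 0 to 263 that was higher in 9 of 9 mice. The part of other cell types in these values was not tested. Summed markers of mature T cells were at 0 to 120 CPM against 0 to 116, and those of quiescent double-positive cells at 144 to 1762 against 716 to 2419. Within each mouse the median mitochondrial share of the DN Ptcra+ cells was 3.94 to 7.91%. A doublet score called 5 of the 305 cells, 289 passed the protein filters of the study, and 7 shared a barcode sequence with a cell of another lane.

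Receptor transcripts in these cells differed by genotype. Trac, the constant gene of the TCR alpha chain, which is normally transcribed only after the pre-TCR stage, was at 9.8 and 37.2 CPM in the B6 mice. It was at 2380 and 2880 CPM in the OT-II mice and 1547 in AND replicate 1, but at 73.3 and 139 in the F5 mice and 66.7 and 71.8 in the OT-I mice. In all 9 mice it was lower than in the coreceptor-positive Ptcra+ cells, which had 149 and 182 CPM in B6 and 6673 and 5608 in OT-II. The counts do not separate transcripts of a transgene from those of the cell's own locus.

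For Trbc2, a constant gene of the beta chain, the OT-I mice were highest, at 5782 and 3423 CPM, and the other 7 mice lay between 831 and 2877. The antibody to TCR Vb5.1 5.2, the beta variable region of the OT-I and OT-II receptors, was at 44.5 and 83.5 per 10000 on the DN Ptcra+ cells of the OT-I mice and at 10.4 and 5.76 on those of the OT-II mice. B6 mice were at 6.09 and 6.35, between the OT-II values, and the fitted log2 difference of OT-II from B6 was 1.07 ± 0.28 (edgeR adjusted p = 0.109). On coreceptor-positive Ptcra+ cells the order was different, with 10.1 and 19.7 in the OT-I mice and 29.9 and 9.25 in the OT-II mice. TCR beta protein was at 79.4 in AND replicate 1, 21.8 and 38.8 in the OT-I mice, and 4.87 to 24.8 in the other 6.

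Rag1 RNA was at 417 and 758 CPM in the OT-II mice and 317 and 831 in B6. It was at 9.53 and 0 in the OT-I mice, where the OT-I replicate 2 value of 0 allows up to 71.8 CPM, at 62.8 and 111 in the F5 mice, and at 0 in AND replicate 1, which allows up to 21.1 CPM. The F5 and AND mice are Rag1-/-, but this 3′ assay counts a tag that may lie outside the deleted stretch, so that these levels do not check the genotype. Rag1 and Rag2 were lower in DN Ptcra+ than in coreceptor-positive cells of each mouse, and Dntt, which adds bases at the joints of receptor genes, was higher in 5 (335 to 1267 CPM against 499 to 980).

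**Figure D4:**
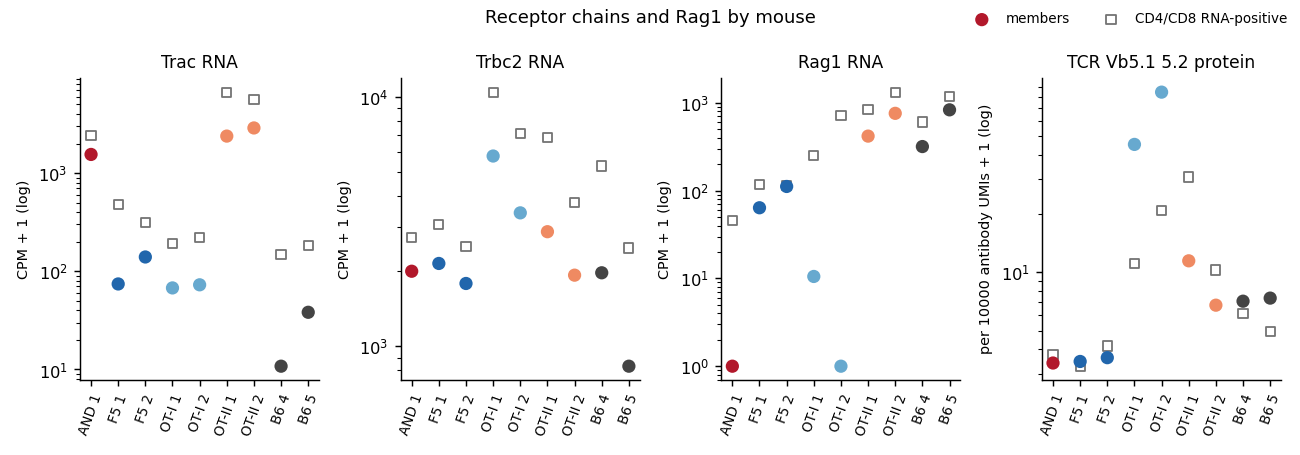
Trac, Trbc2 and Rag1 RNA (CPM + 1) and TCR Vb5.1 5.2 protein (per 10000 antibody UMIs + 1), log axes, for DN Ptcra+ cells (members, circles colored by genotype) and coreceptor-positive Ptcra+ cells (squares) of 9 mice. Trac is high in AND and OT-II, while Trbc2 and the Vb5 protein of DN Ptcra+ cells are highest in OT-I.

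The central contrast of the study, MHC class II-specific against class I-specific receptors, was tested on sums over the DN Ptcra+ cells of each mouse with the family of transgenes as a covariate. Only mice with at least 10 cells were planned for, and that fit could not be made. With at least 4 cells, 3 class II-specific mice (AND replicate 1 and both OT-II) and 4 class I-specific mice entered. Of 2299 genes, 1 (0.0435%) differed, which was Trac, with a log2 fold change of 4.59 ± 0.45 (edgeR quasi-likelihood adjusted p = 5.6e-05). Class II specificity came only with the AND and OT-II transgenes and class I only with F5 and OT-I. MHC class therefore cannot be told apart from the transgenes, which may themselves supply Trac. Il2ra did not pass (1.39 ± 0.47, edgeR adjusted p = 0.999). The share of DN Ptcra+ cells with an Il2ra UMI after thinning to 1000 UMIs was 30.7 to 50% in the 3 class II-specific and 0 to 16.7% in the 4 class I-specific mice. These did not overlap, with means of 39.0% ± 9.95 and 8.11% ± 9.38 (two-sided exact permutation p = 0.0571, the smallest that 3 against 4 mice allow, adjusted p = 0.4). Without thinning the means were 93.9% and 75.8% (exact permutation p = 0.571). In the B6 mice 19 of 42 and 5 of 13 cells had one after thinning.

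No surface protein differed by MHC class among 111 (0%; 9 at an unadjusted p under 0.05). The lowest adjusted p was 0.214, for TCR Vb5.1 5.2 and for CD93. With Rag1-deficient against Rag1-sufficient transgenic mice, 0 of 2299 genes (0%) passed edgeR's test and 197 had an unadjusted p under 0.05, while DESeq2 called 9.

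For transgenic against wild-type mice within the third experiment, only the OT-II and B6 mice had at least 10 DN Ptcra+ cells each. The test rests on 2 against 2 mice with the lane block as a covariate and 1 residual degree of freedom. The lane block is a split by lane number made for this test, not a recorded batch. It puts OT-II replicate 1 with B6 replicate 4, and OT-II replicate 2 with B6 replicate 5. The first pair was also deeper, with medians over all cells of 4248 and 3086 RNA UMIs against 2027.5 and 1541. The block therefore cannot be told apart from replicate or depth. By edgeR's quasi-likelihood test 67 of 6784 genes (0.988%) differed, 27 higher in OT-II (0.398%) and 40 lower (0.59%). The count is unstable: DESeq2 called 5 and edgeR without the lane block 1. Trac, at the levels given above, was called under each alternative (log2 fold change 7.55 ± 0.44, edgeR adjusted p = 2.38e-60).

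Dqx1, related to RNA helicases, was at 123 and 460 CPM in OT-II and 16.3 and 24.8 in B6 (3.36 ± 0.38). Rnf43, a ubiquitin ligase that restrains Wnt receptors, was at 80.5 CPM or more in both OT-II mice and at 1.63 and 0 in B6, where the count of 0 in B6 replicate 5 allows up to 37.2 CPM. Both were called in 5 of 6 alternatives. Ctdspl, a phosphatase, was at 16.5 and 15.3 CPM in OT-II and at 0 UMIs in B6, and the transcript RP23-4H17.3 at 19.2 and 55.6 against 1.63 and 0. At the depth of B6 replicate 5 these levels, other than 55.6, lie under what a count of 0 allows, so that a difference from that mouse was not detectable. Ctdspl was called in 1 of 4 alternatives and RP23-4H17.3 in 3 of 5. Neil3, a DNA glycosylase, Atad2, a chromatin ATPase, and Mxd3, a partner of MAX, had log2 fold changes of 2.54, 1.20 and 2.57, and Loxl2, a lysyl oxidase, was higher by 2.97. These 4 genes were called in 3 of 6 alternatives each. Rrm1 and 2810417H13Rik, 2 of 36 cell-cycle genes, rose (each called in 2 of 6 alternatives), against 0.398% of all genes. The list's median log2 fold change was 0.61 against 0.03 over all genes. The share of DN Ptcra+ cells that were cycling, defined below, was 95 of 127 and 59 of 83 in the OT-II mice and 19 of 42 and 11 of 13 in B6, and the part of cycling in these differences was not tested.

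H19, an imprinted noncoding RNA, was at 36.1 and 43.1 CPM in OT-II and 198 and 248 in B6 (-2.36 ± 0.28, edgeR adjusted p = 1.12e-13), and was called in 5 of 6 alternatives. Ctla2a, a cysteine protease inhibitor, was at 18.3 and 8.33 CPM against 121 and 62 (-2.66 ± 0.38). Tshz2, Pcmtd1, Hdac4, a histone deacetylase, Hsd11b1, which regenerates active glucocorticoid, Vamp1 and Myl10 had log2 fold changes of -2.18, -1.40, -1.17, -2.17, -1.92 and -1.13. Tshz2 and Pcmtd1 were called in 4 of 6 alternatives, Ctla2a, Hsd11b1 and Vamp1 in 3, and Hdac4 and Myl10 in 2. Of the listed groups, 2 of 6 tested Notch targets were lower (Cdkn1a, a cell-cycle inhibitor, and Ifngr1), against 0.59% of all genes, and Hes1 and Il2ra did not pass. Tcrg-C1 and Tcrg-C4, Ccr9, Epcam and Cd27, a receptor of the TNF family, were also lower, with log2 fold changes from -1.69 to -0.94, while Trbc2 was higher by 0.96. Few of these calls were stable: of 6 alternatives, Cdkn1a, Ccr9 and Epcam were called in 3, Tcrg-C1 and Tcrg-C4 in 2, and Cd27, Trbc2 and Ifngr1 in 1. None of the tested recombination (0 of 8), commitment (0 of 14) or growth genes (0 of 10) passed. Over all genes 0.988% did, so 0 is near the background for lists of this size.

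Of 111 surface proteins, 7 (6.31%) differed between OT-II and B6, 6 higher (5.41%) and 1 lower (0.901%). CD90.2 (1777 and 1884 per 10000 against 1190 and 1343), Neuropilin-1 (117 and 78.4 against 44.6 and 33.7) and CD11a (up to 194 against up to 129) were higher and TER-119, an erythroid antigen at a level of at most 4.25, lower under both scalings. The log2 differences were 1.14 ± 0.10, 1.92 ± 0.27, 1.20 ± 0.22 and -1.62 ± 0.30 (edgeR adjusted p of 0.00917, 0.0291, 0.0415 and 0.0415). Each was called in 4 of 5 alternatives and lost with at least 4 cells per mouse (edgeR adjusted p = 0.683), and scaling to total UMIs gave 0.53 for CD90.2 and 0.59 for CD11a. CD29 was at 470 and 523 against 366 and 457 per 10000 (0.88 ± 0.16, edgeR adjusted p = 0.0415) and was called in 3 of 5 alternatives, with a difference of 0.28 under total scaling. CD25 and CD45 were called under TMM, but their levels overlapped between genotypes (CD25 at 1320 and 1149 against 1335 and 1090), and the differences were 0.03 and 0.05 when scaled to total antibody UMIs. TMM moved the median protein from -0.72 to -0.10, and total scaling called 65 proteins lower and 5 higher.

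Cell division follows beta-selection, and the DN Ptcra+ cells were split by it. A cell was called cycling when 36 cell-cycle genes made up at least 20 of 10000 UMIs. By this score 215 of 305 (70.5%) were cycling, as were 63.7% of coreceptor-positive Ptcra+ cells. The median log2 ratio of the 36 genes in DN Ptcra+ over coreceptor-positive cells was nonetheless -0.83, against -0.10 over all genes. Of the 305 cells, 109 lay between 10 and 40 and so near the cut. Both OT-II mice and B6 replicate 4 had at least 10 cells of each kind and entered the test, with the mouse as a block and the 36 genes left out. Cycling cells had more UMIs (median 19444 against 11148 in OT-II replicate 1, 8553 against 5932 in OT-II replicate 2, and 17161 against 9561 in B6 replicate 4). By edgeR's quasi-likelihood test 1486 of 4937 genes (30.1%) differed, 792 higher (16%) and 694 lower (14.1%) in cycling cells. The highest, such as Hist1h2ap, a replication histone, Hmgb2, a chromatin protein, Tuba1b, a tubulin, and Lig1, DNA ligase I, move with the genes that made the split.

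Of the Notch lists, 2 of 2 tested receptors and 5 of 6 tested targets were lower in the cycling cells, while 0 of 3 tested genes of Notch glycosylation and cleavage (median log2 fold change -0.22) and 0 of 2 of the nuclear complex (0.01) were called. Notch1 was at 373, 549 and 335 CPM in cycling cells of OT-II replicates 1 and 2 and B6 replicate 4, and at 572, 896 and 703 in non-cycling cells of the same mice. The groups did not overlap, and the log2 fold change was -0.86 ± 0.15 (edgeR adjusted p = 2.6e-07). Notch3 fell by 1.18 ± 0.21, without overlap. Of the targets, Il2ra fell by 0.79 ± 0.15 (368, 490 and 376 CPM against 490, 666 and 932), Hes1 by 0.83 ± 0.17 (150, 411 and 175 against 268, 569 and 349), Dtx1 by 0.99 ± 0.23, Cdkn1a by 0.91 ± 0.36 and Ifngr1 by 0.48 ± 0.20 on the log2 scale. Igf1r did not pass (-0.16 ± 0.35). The background for a lower call is 14.1%, so that 0 of 3 and 0 of 2 are near it. The median of the tested targets was -0.81 against 0.00 over all genes. Notch1, Notch3, Il2ra and Hes1 were called in 9 of 9 alternatives, Dtx1 in 7, and Cdkn1a and Ifngr1 in 3 each. These falls, and those of the lists below, are in shares of the UMIs. The cycling cells held more UMIs per cell, so a lower share need not be a lower count per cell. Counts per cell were not tested.

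Of 15 tested genes of the pre-TCR complex and its signaling, 8 fell and 0 rose, among them Cd3d (-0.86 ± 0.14), Cd3e (-0.70 ± 0.15), Cd247, the zeta chain (-0.89 ± 0.21), and Lck (-0.73 ± 0.14). Cd3g did not pass (-0.18 ± 0.13). Over all genes tested 14.1% were lower and 16% higher. Rag1 was at 341, 656 and 170 CPM in cycling and 806, 1166 and 618 in non-cycling cells, and fell by 1.33 ± 0.15 on the log2 scale (edgeR adjusted p = 1.15e-16), which was lower in 3 of 3 mice. Dntt fell by 0.56 ± 0.14, and Rag2 did not pass (-0.32 ± 0.27). Of 14 tested commitment factors 8 fell, among them Bcl11b (-0.81 ± 0.15) and Runx1 (-0.68 ± 0.18), and of 7 tested double-positive stage genes 6 fell, among them Aqp11 (-1.17 ± 0.16), Arpp21 (-0.85 ± 0.14) and Ccr9 (-1.33 ± 0.33). Outside the lists the clearest lower genes were Btg1 and Btg2, which restrain proliferation (-2.08 ± 0.18 and -1.68 ± 0.18), Mxd4, a MAX partner that opposes MYC (-2.22 ± 0.20), H19 (-2.29 ± 0.23), Pld4 (-1.81 ± 0.20) and Malat1, a nuclear noncoding RNA (-1.28 ± 0.12).

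Of 8 tested genes of growth and nutrient uptake, 5 were higher and 0 lower, against 16% and 14.1% of all genes tested. Ncl, nucleolin, was at 1694, 2531 and 2032 CPM in cycling and 792, 1173 and 528 in non-cycling cells (1.27 ± 0.14, edgeR adjusted p = 1.2e-17). Nolc1, another nucleolar protein (1.84 ± 0.22), Odc1, which starts polyamine synthesis (1.23 ± 0.25), Npm1 (0.57 ± 0.13) and Tfrc, the transferrin receptor (1.62 ± 0.39), rose as well. Myc did not pass (-0.13 ± 0.20).

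On the surface, 4 of 111 proteins (3.6%) rose and 0 fell in cycling cells. CD71, the protein of Tfrc, was at 153, 140 and 237 per 10000 in cycling and 81.3, 96.9 and 33.1 in non-cycling cells (1.56 ± 0.22, edgeR adjusted p = 1.7e-09). CD8a (0.74 ± 0.17), CD8b (0.77 ± 0.18) and CXCR4 (0.51 ± 0.16) were the others, called in 4, 4 and 2 of 8 alternatives against 6 of 8 for CD71, and CD8a stayed at or below 48.7 per 10000. Scaled to total antibody UMIs, no protein passed, and CD71 stood at 1.38 with an edgeR adjusted p of 0.088. CD25 protein did not pass (-0.05 ± 0.20, edgeR adjusted p = 0.957). It was at 1314, 1129 and 1059 per 10000 in cycling and 1341, 1209 and 1575 in non-cycling cells, although its transcript Il2ra was lower in each mouse.

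**Figure D5:**
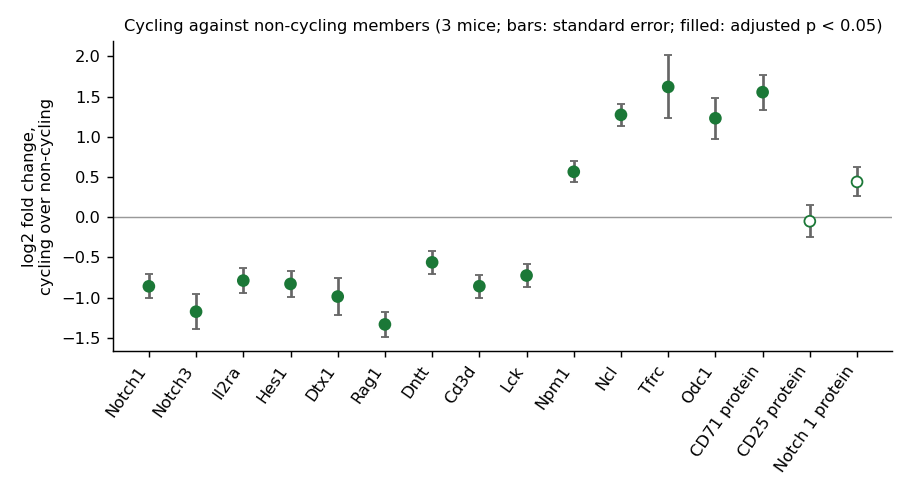
Log2 fold change of cycling over non-cycling DN Ptcra+ cells in 3 mice (edgeR, bars standard error, filled points adjusted p under the threshold of 0.05) for 13 genes and 3 proteins. Notch1 to Lck lie below 0, Npm1 to CD71 above 0, and CD25 and Notch 1 protein are not called.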

How the data were processed

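Each of 19 lanes from 17 mice was deposited as raw counts of UMIs per gene and antibody, made by the authors with Cell Ranger 3.1.0 (submitters' processing notes) on mm10. The matrices that pool lanes repeat these counts and were not used. The cells, gene lists and comparisons were chosen with earlier results of these data known. Lanes held 9893333 to 43303999 RNA UMIs, and the unsorted lanes had median depths of 1516.5 to 7062 UMIs per cell. UMIs of the chosen cells were summed per mouse (41778 to 2185481 RNA UMIs and 12821 to 369871 antibody UMIs), the mouse being the replicate. Intervals and limits for 0 counts (3 counts) cover counting error only.

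Sums were tested in R 4.3.3 with edgeR 4.0.16 (TMM, filterByExpr for RNA, quasi-likelihood, Benjamini-Hochberg, adjusted p under 0.05) and, as an alternative, DESeq2 1.42.0. Shares were compared by two-sided exact permutation over mice (scipy 1.17.1) after thinning cells to 1000 UMIs. The RNA of double-negative and coreceptor-positive cells was only described, for genes at 50 CPM or more with 10 CPM added to ratios. Doublets were scored per lane against simulated ones, calling 0.8% per 1000 barcodes, and were kept in the main analysis. Scripts were tested on simulated data. The text names members of 216 listed genes, and in each direction up to 8 other genes with the smallest adjusted p, up to 10 proteins by size, and the 10 described genes with the largest median ratio. Receptor variable segments, Xist, Y-linked genes and genes of 1 chromosome are not named. Alternatives were scaling, filters, depth, thresholds, doublets, the protein filters of the authors (1000 to 10000 antibody UMIs and at least 70 proteins), covariates and leaving out each mouse. A minimum of 4 cells per mouse replaced the planned 10 for MHC class and Rag1, which could not be fitted. Some genes and a protein of these lists are not reported here.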

Additional observations from a re-analysis of the deposited data

Results flagged for a closer look

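The share of DN Ptcra+ cells was, without thinning, 2.27 percentage points higher in OT-II than in OT-I mice, while the AND minus F5 difference was -0.211 points. After thinning to 1000 UMIs the differences were 0.624 and -0.0435 points, and the AND and F5 mice then overlapped. The thinned shares count mostly other cells: 104 cells met the requirements, and 27 of these were DN Ptcra+ cells at full depth. That held for 0 of 4 and 0 of 1 cells in AND replicates 1 and 2. In F5 replicates 1 and 2 it held for 0 of 1 and 2 of 10. Both mice of each OT genotype went the same way, and the difference between these differences was not tested. After thinning to 1000 UMIs, F5 replicate 2 stood apart from the other 3 MHC class I-specific mice with a share of 0.224%, a gap of 0.83 of the group's range. OT-I replicate 1 stood apart among the 4 Rag1-sufficient transgenic mice, with 100% of its 4 cells cycling after thinning and a gap of 0.884 of the range. Outlying samples were looked for in 8 groups, and chance marks about 1 in 20 groups.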

How the results depend on the processing

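Named genes and proteins reversed direction under no alternative, and 51 of 120 were called under each one run. Of 108 proteins between DN Ptcra+ and coreceptor-positive cells, scaling to total UMIs called 51 in place of 28, and leaving out 1 mouse called 18 (without AND replicate 1) to 28. For MHC class, RNA calls were 9 with no filter on low counts and 1 to 4 without 1 mouse (4 without AND replicate 1). Protein calls were 4 with at least 3 Ptcra UMIs and 0 to 5 without 1 mouse (5 without AND replicate 1). With the replicate number as a block, MHC class calls were 2 for RNA and 1 for protein. That number marks the experiment or the lanes used, and the labels do not say that it pairs mice. Rag1 deficiency called 9 genes with DESeq2, 14 with no filter, 4 with at least 3 Ptcra UMIs, 2 without MHC class as a term and 0 to 21 without 1 mouse (21 without OT-II replicate 1, 5 without OT-I replicate 1). OT-II against B6 called 5 genes with DESeq2, 29 with no filter, 117 with the authors' protein filters, 1 without the lane block and 7 with at least 4 cells per mouse, which brings in OT-I. For its proteins the counts were 70 with total scaling, 14 with the protein filters, 13 without doublets, 12 without the lane block and 0 with at least 4 cells. Cycling called 542 genes with DESeq2 and 798 to 1339 without 1 mouse (798 without OT-II replicate 1). Its protein calls were 0 with total scaling or the protein filters, 11 with at least 3 Ptcra UMIs and 1 to 4 without 1 mouse (1 without either OT-II mouse). The Rag1 difference in the Il2ra share was 10.8 points and ran from -0.485 (without AND replicate 1) to 17.2 without 1 mouse. That in the cycling share was -1.73 points and ran from -3.67 to 3.16 (without OT-I replicate 1). The causes were not tested. OT-II against B6 with at least 3 Ptcra UMIs or with a mouse left out, and a cycling cut of 10 per 10000, could not be fitted. Few cells in the AND, F5 and OT-I mice limit what their comparisons can show.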
